A study of Mus musculus with 11 samples.

Results

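The genes of 9 chemoattractant receptors were described in mice that received imiquimod (IMQ) or vehicle on the skin, with RNA sequenced from both the skin and the small intestine. They are the formyl peptide receptors *Fpr1*, *Fpr2* and *Fpr3*, the anaphylatoxin receptors *C3ar1*, *C5ar1* and *C5ar2*, the lipid receptors *Ptafr* and *Ltb4r1*, and the chemerin receptor *Cmklr1*. They were taken by gene symbol from a table of 45777 genes, and all 9 were found. The receptors were selected on the change of several of them between IMQ-treated and control libraries of this series. Their values and calls under IMQ are therefore a description, and p-values of single receptors are given only between control small intestine and control skin. The libraries came from female or male BALB/c mice that were 8 to 10 weeks old at treatment, and no engineered allele is named. IMQ-treated mice received 62.5 mg per day of a cream with 5% IMQ (Aldara) on the shaved back, and control mice received Vaseline, so that IMQ and the other components of its cream cannot be told apart. The sample annotation gives 5 to 8 days and includes the right ear, whereas the methods give the back only and at most 7 days, and the days of a single mouse are stated in neither. Skin gave 6 libraries, with control replicates 1, 2 and 3 and IMQ replicates 4, 5 and 6, and small intestine gave 5, with control replicates 7, 8 and 9 and IMQ replicates 10 and 11. Nothing states which skin and intestinal libraries came from one mouse.

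Chemoattractant receptors are G protein-coupled receptors on the surface of neutrophils, monocytes, macrophages and other leukocytes, and they guide these cells to sites of infection and injury. Formyl peptide receptors sense N-formylated peptides of bacteria and mitochondria as well as host proteins such as serum amyloid A and annexin A1. The anaphylatoxins C3a and C5a are cleaved from complement proteins, leukotriene B4 and platelet-activating factor are lipids made from membrane phospholipids, and chemerin is a protein secreted as a precursor and activated by proteases. IMQ is a ligand of the endosomal receptor TLR7, and on the skin it induces a dermatitis that resembles psoriasis.

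The 11 libraries had 44995414 to 58526384 counts. Summed over a list of markers, FPKM, fragments scaled by gene length and library size, of keratinocyte genes was 4944 to 13580 in skin against 0.509 to 1.42 in small intestine. For enterocyte genes the sum was 13910 to 32060 in small intestine against 35.2 to 312 in skin. The library of control skin, replicate 2, stood apart from the other control skin in its hair follicle and pigment genes, with a summed FPKM of 32.7 against 652 and 1120. IMQ-treated skin held 15.8 to 28.6, so replicate 2 was the control library nearest to it in these genes. The enterocyte genes of replicate 2 also reached a median of 1.15% of what control small intestine held, where the other skin libraries reached at most 0.0274%. Leaving replicate 2 out widens the difference in hair follicle genes between the groups, which cannot be told apart from IMQ. Without replicate 2, the log2 fold change under IMQ in skin was 6.67 for *Fpr1*, 5.16 for *Fpr2*, 1.92 for *C3ar1*, 1.48 for *C5ar1* and 2.54 for *C5ar2*.

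*Fpr1* and *Fpr2* are neighbours that are read in opposite directions. In RefSeq positions on GRCm38, *Fpr1* (Entrez Gene 14293) lies at chr17:17876471-17883939 on the minus strand and *Fpr2* (14289) at chr17:17887824-17893952 on the plus strand, with 3885 bases between their start sites. *Fpr3* (14294) follows at chr17:17970458-17971677, 76506 bases beyond *Fpr2*. The complement receptors *C5ar2* (319430, chr7:16234587-16244154) and *C5ar1* (12273, chr7:16246743-16259540) are also neighbours, 2589 bases apart on the minus strand. The other receptors stand alone, namely *C3ar1* (12267, chr6:122847140-122856157), *Ptafr* (19204, chr4:132564067-132582683), *Ltb4r1* (16995, chr14:55765962-55768492) and *Cmklr1* (14747, chr5:113612355-113650475).

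The 250 bases before the start site are shown for *Fpr1*, *Fpr2* and *C3ar1*, the 3 receptors with the largest log2 fold changes in small intestine. They are the RefSeq sequence of GRCm38.p6, that is of another strain than BALB/c, and lie at chr17:17883940-17884189 (minus strand), chr17:17887574-17887823 (plus strand) and chr6:122856158-122856407 (minus strand). Capitals mark a match on either strand to one of 4 short motifs, namely GAGGAA (ETS family), TTGCNNAA (C/EBP), TGANTCA (AP-1) and GGGANTTCC (NF-kB).
Fpr1: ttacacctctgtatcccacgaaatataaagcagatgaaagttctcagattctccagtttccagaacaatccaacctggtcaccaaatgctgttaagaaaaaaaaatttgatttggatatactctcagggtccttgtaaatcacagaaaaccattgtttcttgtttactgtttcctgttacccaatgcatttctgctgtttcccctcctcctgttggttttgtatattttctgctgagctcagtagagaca
Fpr2: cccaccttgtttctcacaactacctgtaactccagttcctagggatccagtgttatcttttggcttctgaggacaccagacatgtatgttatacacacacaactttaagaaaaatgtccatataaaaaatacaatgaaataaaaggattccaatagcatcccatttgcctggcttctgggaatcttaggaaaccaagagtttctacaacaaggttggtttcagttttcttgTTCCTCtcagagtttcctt
C3ar1: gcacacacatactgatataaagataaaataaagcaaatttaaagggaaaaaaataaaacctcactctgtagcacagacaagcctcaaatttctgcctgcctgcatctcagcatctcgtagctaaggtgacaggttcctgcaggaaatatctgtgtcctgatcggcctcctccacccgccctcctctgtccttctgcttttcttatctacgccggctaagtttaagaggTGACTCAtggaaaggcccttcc
The *Fpr1* window held none of the 4 motifs. The *Fpr2* window held the ETS letters at 19 to 14 bases before the start site, on the strand opposite to the gene. The *C3ar1* window held the AP-1 letters at 22 to 16 bases before the start site. Among 32851 windows of this length in the promoter table, the ETS letters stood in 23.3%, the C/EBP letters in 9.56%, the AP-1 letters in 6.75% and the NF-kB letters in 1.43%. A match describes the letters only, and its absence says nothing of a factor.

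Reads of the formyl peptide receptors can be shared where the genes are alike. The longest open reading frames of *Fpr1* and *Fpr2* were 65.8% identical and those of *Fpr2* and *Fpr3* 88.2%. None of their transcripts shared a run of 100 bases, the length of a read, with the longest shared run at 50 bases between *Fpr1* and *Fpr2* and 94 bases between *Fpr2* and *Fpr3*. A pseudogene between *Fpr2* and *Fpr3*, *Gm5966* (chr17:17920258-17921480), did share sequence with *Fpr2*. Its longest run in common was 161 bases, and 159 of the 1295 stretches of 100 bases in *Fpr2* transcripts were found in it, so part of the reads of *Fpr2* may have been counted there or the reverse. In the GENCODE annotation, unlike RefSeq, a transcript of *Fpr3* begins inside *Fpr2*, so that the exons of these genes shared 48 bases of the same strand there, and those of *C5ar2* overlapped *Gm26473* over 127 bases.

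*Fpr1*, which encodes the high-affinity receptor for bacterial formyl peptides, was close to the limit of detection in control skin and among the more abundant receptors after IMQ. The raw counts in control skin were 11, 2 and 3, and those in IMQ-treated skin were 693, 425 and 705. As normalized counts, that is counts divided by the effective size of the library and multiplied by the mean effective size of all 11 libraries, control skin had 9.16, 2.06 and 2.45 and IMQ-treated skin had 667, 389.5 and 685. Every IMQ library stood above every control library, and the lowest of them, replicate 5, was still far from the highest control. The log2 fold change was 6.98 with a standard error (SE) of 0.54, a fold of 126 that rests on very few reads in the control group, and without control replicate 1 it was 7.98. On log2(FPKM + 1), which damps low values, the change was 3.18.

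In small intestine, *Fpr1* had 9, 10 and 30 counts in the control libraries and 743 and 1085 in the IMQ libraries. The normalized counts were 11.2, 11.5 and 31.4 in control mice and 745 and 1336 in IMQ-treated mice. The groups did not overlap, and the log2 fold change was 5.85 (SE 0.48), or 57.8-fold. Control replicate 9 held more *Fpr1* than the other control libraries together, and without it the log2 fold change was 6.54.

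*Fpr2*, the receptor for a wider range of peptides and for serum amyloid A, followed the same pattern from a higher baseline. Control skin had 44.95, 75.1 and 22.1 normalized counts and IMQ-treated skin had 1283, 867 and 1316. Control small intestine had 24.8, 39.0 and 53.3 normalized counts, and IMQ-treated small intestine had 2455 and 1960. The control libraries of the tissues overlapped, whereas both IMQ libraries of small intestine stood above all 3 of skin. The log2 fold change was 4.68 (SE 0.44), or 25.7-fold, in skin and 5.84 (SE 0.30), or 57.4-fold, in small intestine.

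*Fpr3* was at or below 2 counts in all 11 libraries. It had 0 counts in each control library, 1, 0 and 2 in IMQ-treated skin, and 2 and 0 in IMQ-treated small intestine, so no fold is given. A count of 0 allows up to 3 counts in a library, for counting error only.

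The pair also differed in its balance. In FPKM, which is scaled by gene length so that genes can be compared, *Fpr2* stood above *Fpr1* in all 11 libraries. The ratio of *Fpr2* to *Fpr1* was 1.96, 2.28 and 1.96 in IMQ-treated skin, and 3.37 and 1.498 in IMQ-treated small intestine. The intestinal IMQ libraries thus lay on either side of those of skin. In control libraries the ratio was 1.77 to 36.8 and rested on 2 to 30 counts of *Fpr1*.

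*C3ar1*, the receptor of C3a, was abundant in control tissue and higher under IMQ by a similar factor in both tissues. Control skin had 1100, 780.5 and 584 normalized counts and IMQ-treated skin had 3554, 2574 and 3111. Control small intestine had 717, 487 and 569 normalized counts and IMQ-treated small intestine had 2090 and 2315. All IMQ libraries stood above all control libraries of either tissue. The log2 fold change was 1.96 (SE 0.26) in skin and 1.94 (SE 0.18) in small intestine, which is 3.90-fold and 3.83-fold.

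*C5ar1*, the main signalling receptor of C5a, was higher in skin, while its groups overlapped in small intestine. It had 308, 266 and 194 normalized counts in control skin and 688, 679 and 655 in IMQ-treated skin, with a log2 fold change of 1.45 (SE 0.21). The 3 IMQ libraries of skin were nearly equal, and each held more than any control library. In small intestine, the control libraries had 237, 124 and 204 normalized counts and the IMQ libraries had 207 and 344. IMQ replicate 10 fell within the control range, and the log2 fold change was 0.58 (SE 0.35).

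*C5ar2*, a second receptor of C5a that does not couple to G proteins, was among the least abundant receptors. It had 15, 14 and 9 counts in control skin and 71, 62 and 44 in IMQ-treated skin, and the log2 fold change was 2.36 (SE 0.35). The groups of skin did not overlap. In small intestine it had 0, 6 and 17 counts in control mice and 17 and 12 in IMQ-treated mice. Because of the library at 0 it was not fitted in this tissue, and its groups overlapped.

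**Figure D1:**
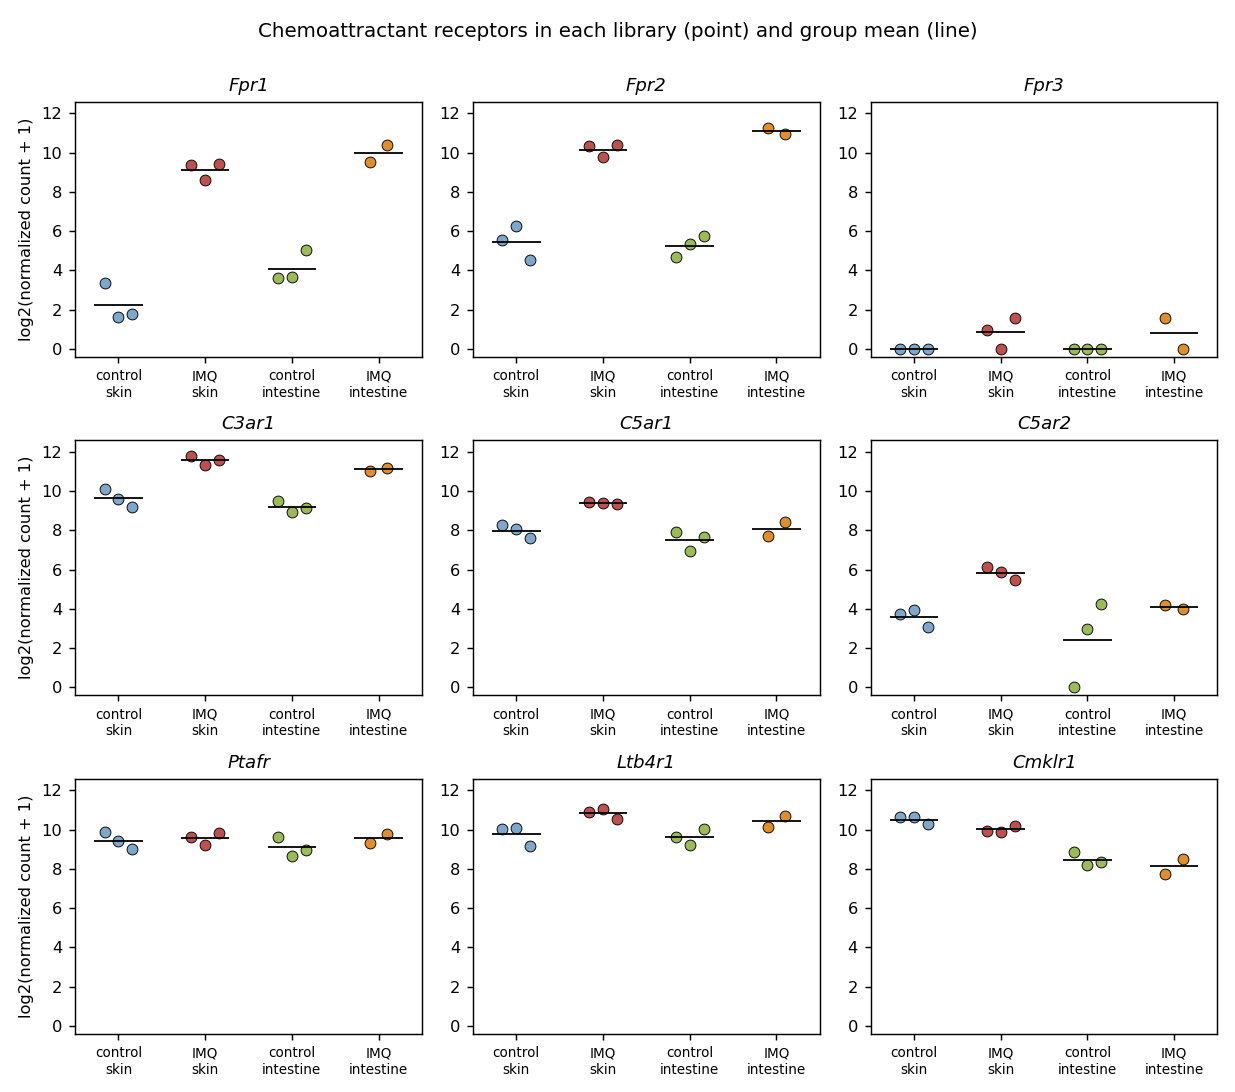
Level of each receptor in each library, as log2(normalized count + 1), with the 4 groups on the x axis. A point is a library and a line is the mean of the plotted values of the group. *Fpr1* and *Fpr2* showed the widest gap between IMQ and control libraries in both tissues, *Ptafr* showed overlapping groups in both, and *Cmklr1* lay lower in small intestine than in skin.

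The lipid receptors differed less. *Ltb4r1*, the high-affinity receptor of leukotriene B4, had 1036, 1080 and 580 normalized counts in control skin and 1941, 2136 and 1506 in IMQ-treated skin. It had 799, 596 and 1063 normalized counts in control small intestine and 1119 and 1665 in IMQ-treated small intestine. The groups did not overlap in either tissue, but in small intestine the gap between control replicate 9 and IMQ replicate 10 was small. The log2 fold change was 1.11 (SE 0.27) in skin and 0.80 (SE 0.27) in small intestine.

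*Ptafr*, the receptor of platelet-activating factor, had 941.5, 686 and 511 normalized counts in control skin against 792, 600.2 and 911 in IMQ-treated skin. It had 793, 409.7 and 503 normalized counts in control small intestine against 647 and 873 in IMQ-treated small intestine. IMQ and control libraries overlapped in both tissues, with log2 fold changes of 0.16 (SE 0.26) and 0.46 (SE 0.30).

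*Cmklr1*, a chemerin receptor found on macrophages, plasmacytoid dendritic cells and some endothelial cells, was the only fitted receptor with a log2 fold change below 0, in both tissues. It had 1590, 1574 and 1249 normalized counts in control skin and 989, 938 and 1180 in IMQ-treated skin, so that all IMQ libraries stood below all control libraries. The log2 fold change was -0.45 (SE 0.15). In small intestine the groups overlapped, with 462, 288 and 331 normalized counts in control mice and 212.5 and 367 in IMQ-treated mice, and the log2 fold change of -0.28 (SE 0.32) turned to 0.07 without IMQ replicate 10.

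**Figure D2:**
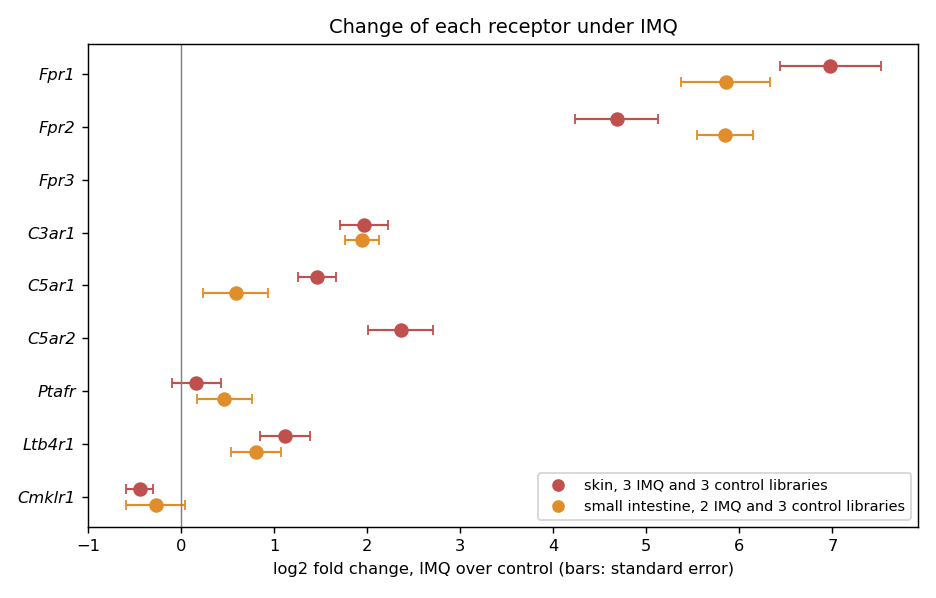
Log2 fold change of each receptor, IMQ over control, in skin (3 against 3 libraries) and small intestine (2 against 3), from edgeR. Points are the estimates and bars are 1 SE. *Fpr1* and *Fpr2* lay between 4.68 and 6.98, *C3ar1* at 1.96 and 1.94, and *Cmklr1* below 0. *Fpr3* in both tissues and *C5ar2* in small intestine were not fitted.

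A gene was called where its Benjamini-Hochberg adjusted p, over all genes tested in the tissue by the quasi-likelihood test of edgeR, was under 0.05. As a description, since the receptors were selected on this change, 8 of the 9 receptors were fitted in skin and 5 of them were called, all higher (*Fpr1*, *Fpr2*, *C3ar1*, *C5ar1* and *C5ar2*). Of all genes tested in skin, 6.74% were called, 4.05% higher and 2.69% lower. In small intestine, 7 receptors were fitted and 3 were called, all higher (*Fpr1*, *Fpr2* and *C3ar1*), where 2.95% of all genes were called, 2.77% higher and 0.17% lower. IMQ and control libraries did not overlap, with the IMQ libraries higher, for 6 receptors in skin and 4 in small intestine, against 12.0% and 12.9% of all genes tested. The median log2 fold change was 1.71 over the 8 receptors of skin and 0.80 over the 7 of small intestine, against -0.01 and -0.02 over all genes. Nothing is read from these counts. Without IMQ replicate 4 or 5 of skin, *C5ar1* (log2 fold changes 1.43 and 1.45) and *C5ar2* (2.18 and 2.35) were no longer called and 3 receptors remained, and *C5ar2* (2.44) was not called without control replicate 1 either. *Ltb4r1* in skin was called with DESeq2, on log2(FPKM + 0.01), in one fit of all libraries and without control replicate 2.

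The makeup of the receptor transcripts differed between IMQ-treated and control mice. Summed over the 9 receptors, FPKM was 21.3 to 33.5 in control skin, 62.8 to 75.7 in IMQ-treated skin, 9.86 to 13.7 in control small intestine, and 57.5 and 59.7 in IMQ-treated small intestine. *Fpr1* and *Fpr2* together made up 1.76% to 4.02% of this sum in control skin and 31.3% to 41.3% after IMQ. In small intestine their share was 2.97% to 7.34% in control mice and 67.5% and 61.5% after IMQ. The share of *Cmklr1* was 36.5% to 44.0% in control skin and 9.48% to 11.3% in IMQ-treated skin. In small intestine it was 13.7% to 17.8% in control mice and 2.16% and 3.36% after IMQ.

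The order of the receptors by FPKM followed these shares. *Cmklr1* ranked first in every control skin library, followed by *Ltb4r1*, *Ptafr*, *C3ar1*, *C5ar1* and *Fpr2*. *Ltb4r1* ranked first in every control library of small intestine. *Fpr2* ranked first in all IMQ libraries other than skin replicate 5, where *Ltb4r1* did. *Fpr1* came next after it in both IMQ libraries of small intestine, whereas *C3ar1* stood above *Fpr1* in all 3 of skin.

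**Figure D3:**
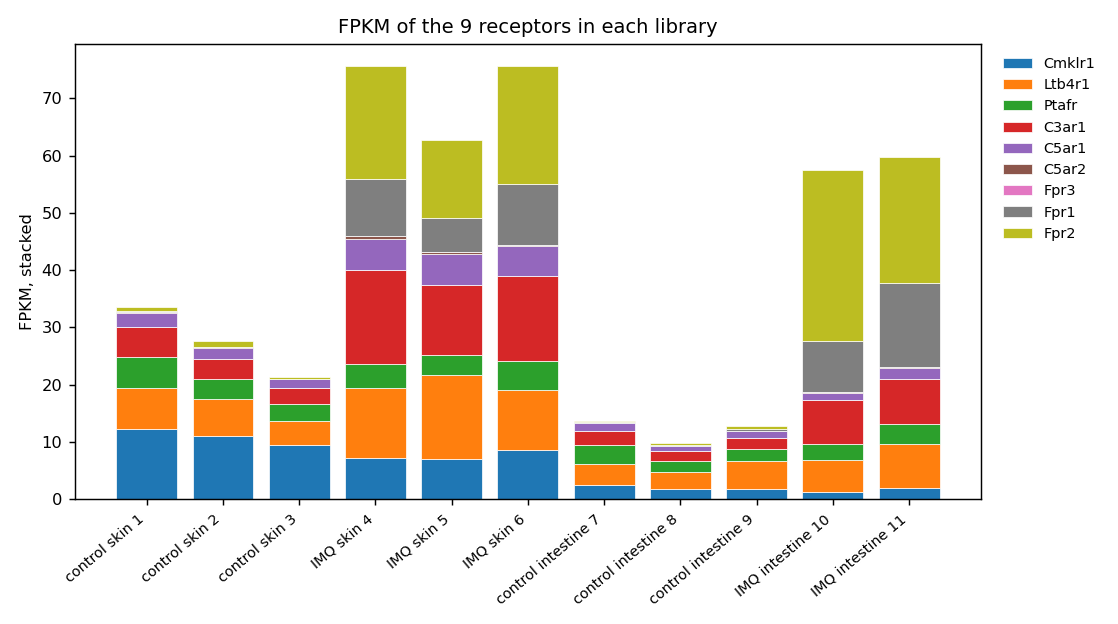
FPKM of the 9 receptors, stacked for each library. Summed FPKM was 21.3 to 33.5 in control skin and 9.86 to 13.7 in control small intestine, and 62.8 to 75.7 and 57.5 to 59.7 after IMQ, where *Fpr1* and *Fpr2* (grey and olive) held the top of each bar.

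Between the tissues, control small intestine was compared with control skin in one edgeR fit of all 11 libraries. *Cmklr1* was lower in small intestine, with a mean of 360.1 ± 90.5 normalized counts (SD, n = 3) against 1471 ± 193 (SD, n = 3) in skin, and all 3 intestinal libraries were below all 3 skin libraries. The log2 difference was -1.98 (SE 0.24, edgeR adjusted p 3.31e-05), or 3.95-fold lower. *Fpr1* was higher in small intestine, with 18.0 ± 11.6 against 4.56 ± 3.99 normalized counts (SD, n = 3 each) and a log2 difference of 1.99 (SE 0.66, edgeR adjusted p 0.0233). This call of *Fpr1* was lost without skin control replicate 2 (log2 difference 1.71, edgeR adjusted p 0.0674), skin control replicate 3 (1.65, 0.0820) or small intestine control replicate 9 (1.30, 0.148), and on log2(FPKM + 1) (0.17, limma adjusted p 0.527). The other 5 receptors tested were not called, with log2 differences from -0.43 for *C3ar1* (edgeR adjusted p 0.141) to -0.09 for *Ltb4r1* (0.823). Over all genes, 57.0% were called, 28.2% higher and 28.8% lower in small intestine, so 2 called receptors of 7 tested are a smaller share than in the table as a whole. On log2(FPKM + 0.01), where the median of all genes moved from -0.01 to -0.45, 6 receptors were called.

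The change under IMQ can be set side by side for both tissues. The log2 fold change in small intestine minus that in skin was -1.11 (SE 0.79) for *Fpr1* and 1.17 (SE 0.56) for *Fpr2*. For *Fpr1* it was 0.21 on log2(FPKM + 1), so that its sign depended on how the few control reads were treated. It was -0.02 (SE 0.35) for *C3ar1* and -0.86 (SE 0.43) for *C5ar1*. The difference was 0.30 (SE 0.44) for *Ptafr*, -0.30 (SE 0.43) for *Ltb4r1* and 0.18 (SE 0.35) for *Cmklr1*. Over all genes, 2.55% were called for this difference.

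Set in order by group means, *Fpr1* stood highest in IMQ-treated small intestine, then IMQ-treated skin, control small intestine and control skin, and no neighbours in this order overlapped. *Fpr2* had the same first pair without overlap, whereas its control groups overlapped. *C3ar1* and *C5ar1* stood highest in IMQ-treated skin, apart from IMQ-treated small intestine in both cases. The control groups overlapped for *C3ar1*, and all groups but IMQ-treated skin overlapped with a neighbour for *C5ar1*. *C5ar2* was also highest in IMQ-treated skin, and its control groups overlapped. For *Ltb4r1* the IMQ groups overlapped with each other, as did the control groups, and for *Ptafr* every neighbouring pair overlapped. *Cmklr1* ran from control skin through IMQ-treated skin to control small intestine without overlap, and its groups of small intestine overlapped.

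In bulk tissue, more cells of a type and more RNA per cell cannot be told apart, so levels of leukocyte markers were placed beside the receptors. In skin, all 6 tested neutrophil markers of 8 were called higher. The summed FPKM of the list was 13.6 to 14.7 in control mice and 7037 to 8588 in IMQ-treated mice. After IMQ nearly all of it was *S100a8* and *S100a9*, so the sum describes these genes rather than the list. *Ly6g* and *Ngp* were not tested and averaged 4.69 and 70.3 (SD 104.7 for *Ngp*) normalized counts in IMQ-treated skin. The receptor *Cxcr2*, which guides neutrophils, had an FPKM of 1.65, 2.64 and 0.726 in control skin and 11.3, 15.9 and 9.65 in IMQ-treated skin. The tested neutrophil markers of skin, *Fpr1* and *Fpr2* were thus all higher in the IMQ group. Within that group, replicate 5 had the highest marker sum (8588) and *Cxcr2* (15.9) but the lowest *Fpr1* (FPKM 5.99) and *Fpr2* (13.6). The part of neutrophils in the receptors' values was not tested.

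Small intestine differed in these markers. Their summed FPKM was 7.18 to 8.13 in control mice and 14.9 and 15.6 in IMQ-treated mice, and *Csf3r* and *Mmp8* were called of 5 tested. *Retnlg* held most of the control sum, with a mean FPKM of 6.31 in control and 5.81 after IMQ. *Cxcr2* was at an FPKM of 0.0610, 0.0875 and 0.0502 in control and 0.0384 and 0.0682 in IMQ-treated small intestine. *S100a8* had a mean of 0.150 in control and was at 0.263 and 0.475 after IMQ. *S100a9* averaged 11.4 normalized counts in control and 53.1 after IMQ and was not called, and *Mmp8* averaged 4.58 and 16.3. *Ly6g* and *Ngp* were at 0 in both IMQ libraries, but *Ly6g* averaged only 4.69 normalized counts in IMQ-treated skin. *Csf3r*, the receptor of the granulocyte growth factor G-CSF, which monocytes also carry, was at 1.02, 0.807 and 0.633 in control and 7.80 and 6.97 in IMQ-treated small intestine. In the same IMQ libraries *Fpr1* reached an FPKM of 8.89 and 14.7 and *Fpr2* of 29.9 and 22.0, where *Fpr2* in IMQ-treated skin was at 19.7, 13.6 and 20.7. The mean FPKM of *Csf3r* was 18.8 in IMQ-treated skin and 7.38 in IMQ-treated small intestine. The part of neutrophils in the receptors' values was not tested in small intestine either.

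Some macrophage markers were higher in both tissues, *Adgre1*, *C1qa*, *C1qb* and *Fcgr1*. In skin, *Csf1r*, *Cd68* and *Mertk* were not called, with log2 fold changes of 0.40, 0.57 and -0.36. The summed FPKM over 7 genes was 169.7 to 256 in control and 454 to 607 in IMQ-treated skin, with 4 called higher. In small intestine it was 114 to 165 in control mice and 519 and 577 in IMQ-treated mice, with 5 called higher, *Cd68* besides those 4. *Ptprc*, which all leukocytes express, was at an FPKM of 8.73 to 16.7 in control and 24.1 to 32.0 in IMQ-treated skin, and at 11.6 to 13.3 and 35.9 to 44.7 in small intestine. The part of macrophages or of leukocytes as a whole in the receptors' values was not tested.

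Markers of other cells were counted as well. In skin, 4 of 6 mast cell, 1 of 4 monocyte, 1 of 5 T and NK cell and 1 of 5 keratinocyte markers tested were called higher. Of the 18 tested markers of eosinophils, dendritic cells, B cells, hair follicles and enterocytes, edgeR called none in skin, 9 had an unadjusted p under 0.05, and DESeq2 called 9. Of these, 7 were hair follicle and pigment genes, all lower under IMQ, with log2 fold changes of -10.2 to -2.59 from edgeR. The others were *Cd209a* and *Rbp2*. In small intestine, 1 of 6 dendritic cell markers was called higher. Of the 37 tested markers of monocytes, eosinophils, mast cells, T and NK cells, B cells, keratinocytes, hair follicles and enterocytes, edgeR called none, 7 had an unadjusted p under 0.05, and DESeq2 called 1. Eosinophil markers were low throughout, with a summed FPKM of at most 3.32 in any library. *Epx* was at 0 in all IMQ libraries but was not tested, and averaged only 0.545 normalized counts in control skin and 13.75 in control small intestine. In small intestine, *Prg2* had a log2 fold change of 0.92, against -0.39 for *Siglecf*, -0.30 for *Ccr3* and -0.13 for *Il5ra*. In skin, *Siglecf* and *Ccr3* had log2 fold changes of -0.49 and -0.81, and *Prg2* and *Il5ra* were not tested. None of these changes was called.

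**Figure D4:**
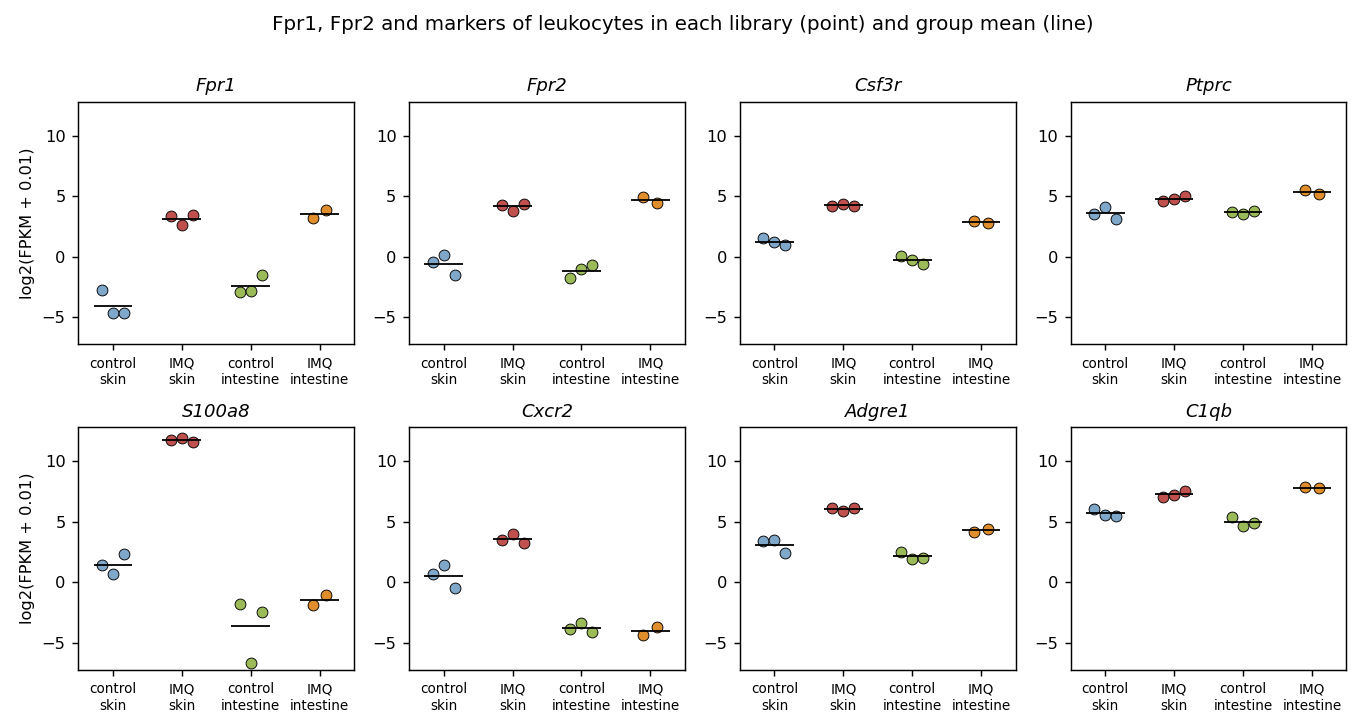
FPKM of *Fpr1*, *Fpr2* and 6 leukocyte markers in each library, as log2(FPKM + 0.01), with the 4 groups on the x axis. A point is a library and a line is the mean of the plotted values. In small intestine, *Fpr1*, *Fpr2*, *Csf3r*, *Adgre1* and *C1qb* were higher under IMQ, while *Cxcr2* stayed between 0.0384 and 0.0875 and *S100a8* at or below 0.475 in FPKM.

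Ligands and enzymes of the same pathways were followed in lists of genes. *Saa3*, which encodes a serum amyloid A made in inflamed tissue, was the only called gene of the formyl peptide ligands. Its mean normalized count was 47.8 ± 31.7 in control skin and 4549 ± 1962 in IMQ-treated skin (SD, n = 3 each), a log2 fold change of 6.59 (SE 0.65, edgeR adjusted p 0.00432). In small intestine it was 20.4 ± 16.7 (SD, n = 3) and 665 ± 687 (SD, n = 2), a log2 fold change of 5.02 (SE 0.87, edgeR adjusted p 0.0275). The intestinal call rested on single libraries, since it was lost without control replicate 8 (edgeR adjusted p 0.0903), control replicate 9 (0.0559) or IMQ replicate 11 (0.125), with log2 fold changes of 3.15 to 5.97 as each library was left out. It was also lost with limma-voom (adjusted p 0.0801) and on log2(FPKM + 1) (0.114). *Anxa1*, encoding annexin A1, had log2 fold changes of 0.17 (SE 0.29) in skin and -0.01 (SE 0.17) in small intestine and was not called. *Saa2* and *Camp* were not tested in either tissue and *Saa1* not in skin.

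Among 12 genes that produce or control the anaphylatoxins, 2 of 10 tested were called higher in skin and 1 of 9 in small intestine. *Cfp*, properdin, which stabilizes the alternative pathway convertase, was called in both. It went from 1320 ± 246 to 4025 ± 453 normalized counts in skin (log2 fold change 1.66, SE 0.17, edgeR adjusted p 0.00432) and from 447 ± 40.8 to 1991 ± 40.5 in small intestine (2.19, SE 0.15, edgeR adjusted p 0.000417). *Cfb*, factor B of the same pathway, was called in skin (1.16, SE 0.21, edgeR adjusted p 0.0265), but not without control replicate 1 or 3, IMQ replicate 5 or 6, or on log2(FPKM + 1), where the adjusted p was 0.0545 to 0.113. *C3* itself had log2 fold changes of 0.94 and 0.48 and was not called. *Hc*, which encodes C5, had a mean FPKM of at most 0.0542 in any group. *Cpn2* and *Cpb2* were not tested in skin, and *Hc*, *Cfd* and *Cpb2* not in small intestine.

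Among 10 enzymes of leukotrienes and platelet-activating factor, 3 were called higher in skin and 1 in small intestine. *Pla2g7*, which degrades platelet-activating factor, was called in both, with log2 fold changes of 0.99 (SE 0.15, edgeR adjusted p 0.0162) in skin and 1.21 (SE 0.20, edgeR adjusted p 0.0247) in small intestine. These calls were lost without skin control replicate 1, skin IMQ replicate 4 or 5, small intestine control replicate 8 or 9 or either intestinal IMQ library, with adjusted p of 0.0518 to 0.144. *Cyp4f18*, which inactivates leukotriene B4, was called in skin (1.86, SE 0.37, edgeR adjusted p 0.0338), but not without control replicate 3 or IMQ replicate 4, 5 or 6 (0.0782 to 0.133). *Alox5ap*, the partner of 5-lipoxygenase, was called in skin (1.05, SE 0.20, edgeR adjusted p 0.0288), but not without control replicate 1 or 3, IMQ replicate 5 or 6, or on log2(FPKM + 1) (0.0604 to 0.114). *Alox5* and *Lta4h*, which make leukotriene B4, were not called in either tissue, with log2 fold changes of 0.22 and -0.03 in skin and -0.72 and -0.26 in small intestine.

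Of 6 genes for chemerin and its processing, 1 of 5 tested was called higher in skin, *Ctsg*, encoding cathepsin G (log2 fold change 1.63, edgeR adjusted p 0.0199), which is named because it was the only one and had a mean of under 50 normalized counts. In small intestine, edgeR called none of 2 tested, none had an unadjusted p under 0.05, and DESeq2 called none. *Rarres2*, encoding chemerin, had log2 fold changes of 1.17 in skin (edgeR adjusted p 0.0973) and 0.12 in small intestine. *Plg* was not tested in either tissue, and *Ctsg*, *Elane* and *Klk7* not in small intestine. Of 10 related receptors, *Fpr-rs3*, *Fpr-rs4*, *Fpr-rs6* and *Fpr-rs7* had 0 counts in all libraries, *Gpr33* was not tested in skin and *Gpr1* not in small intestine. EdgeR called none of the 5 tested in skin, where 3 had an unadjusted p under 0.05 and DESeq2 called 2, and none of the 5 tested in small intestine, where 2 had an unadjusted p under 0.05 and DESeq2 called none. *Ltb4r2*, the low-affinity receptor of leukotriene B4, had log2 fold changes of 0.92 (SE 0.31) in skin and 0.91 (SE 0.34) in small intestine and was not called.

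Of the signal transduction genes behind these receptors, the longest list, 9 of 21 were called higher in skin and 9 of 21 in small intestine, against 4.05% and 2.77% of all genes, of which 7 were the same genes. These 7 were *Pik3r5*, *Prex1*, *Dock2*, *Vav1*, *Rac2*, *Fgr* and *Arrb2*. *Rac2*, the GTPase of leukocytes that drives migration and the oxidative burst, had the largest change of these 21 genes in skin, from 1019 ± 137 to 5057 ± 1314 normalized counts (log2 fold change 2.37, SE 0.21, edgeR adjusted p 0.00321). In small intestine it went from 1637 ± 401 to 7399 ± 154 (2.22, SE 0.21, edgeR adjusted p 0.00159). *Fgr*, a Src family kinase of myeloid cells, had the largest change of the 21 in small intestine. It went from 458 ± 55.2 to 4938 ± 704 normalized counts there (3.47, SE 0.16, edgeR adjusted p 0.000153), against 463 ± 120.2 to 1658 ± 316 in skin (1.90, SE 0.23, edgeR adjusted p 0.00747). *Pik3r5*, the regulatory subunit of phosphoinositide 3-kinase gamma, had log2 fold changes of 1.83 (SE 0.29, edgeR adjusted p 0.0185) in skin and 2.33 (SE 0.23, edgeR adjusted p 0.00189) in small intestine. Its call in skin was lost without control replicate 1 or IMQ replicate 4, 5 or 6 (0.0554 to 0.0794). The genes for G protein subunits *Gnai2*, *Gnai3* and *Gnb2* were not called in either tissue.

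Over the 6 lists, 16 of 53 genes tested were called in skin and 12 of 50 in small intestine, all higher, against 4.05% and 2.77% of all genes called higher, and 10 were called in both. This is 62.5% of the genes called in skin and 83.3% of those called in small intestine. The same share over all called genes is not given here, and the lists were chosen with earlier results of these data known. Nothing is therefore read from these percentages. Between the control tissues, 30 of 47 genes tested from the lists were called, 13 higher and 17 lower in small intestine, which is 63.8% against 57.0% of all genes. The count in skin was 12 without control replicate 3, 7 without control replicate 1 or IMQ replicate 5, 9 without IMQ replicate 4 or 6, and 23 without control replicate 2.

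**Figure D5:**
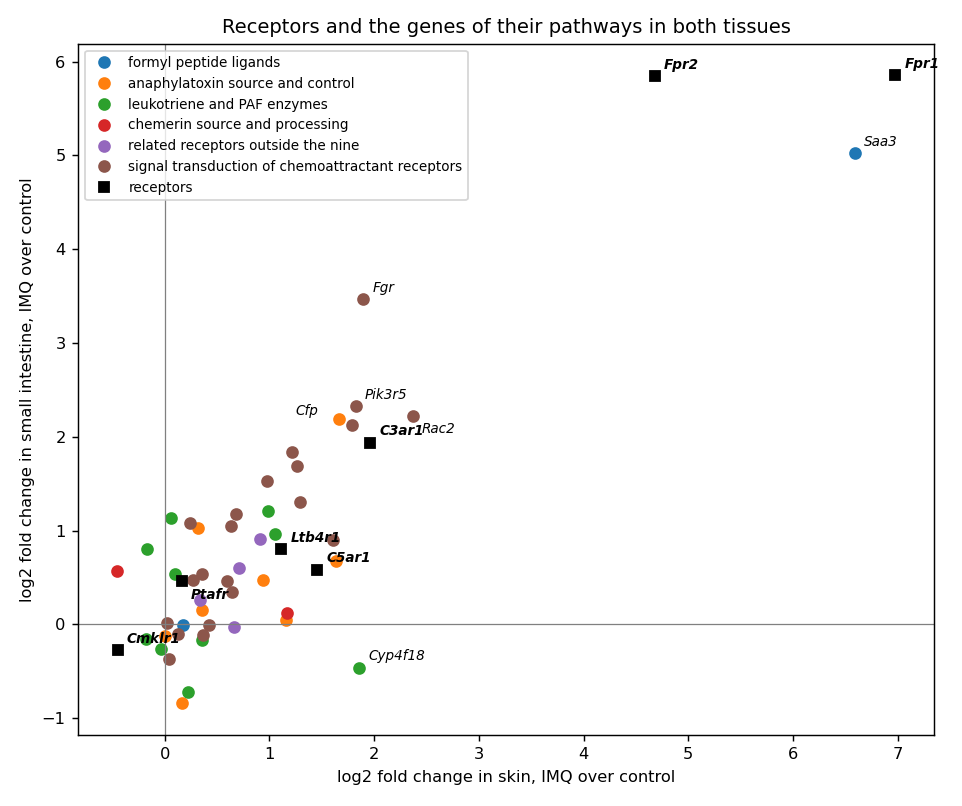
Log2 fold change under IMQ in skin (x axis) and small intestine (y axis) for genes fitted in both tissues, by list (circles), with the receptors as black squares. *Fpr1*, *Fpr2* and *Saa3* lay above 4.6 in both tissues. *Fgr* lay higher in small intestine (3.47) than in skin (1.90), and *Cyp4f18* was at 1.86 in skin and -0.46 in small intestine.

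For each receptor, the genes most alike in their pattern over the 11 libraries were found among 19846 genes whose normalized count averaged at least 10. The measure was the root mean square difference of log2(normalized count + 1) after each gene was centred on its own mean, and it describes a shared pattern only. On log2(FPKM + 0.01), 14 of the 24 genes stayed among the nearest 3 of their receptor. *Apoe* fell to rank 429, the genes of *C5ar2* to ranks 22, 31 and 37, and *Tlr7* to rank 9. *Gm1720*, a predicted gene, was nearest to *Fpr1* (0.94) and to *Fpr2* (0.68). *Gm20717* came next for *Fpr1* (0.997). *Gm1720* had 0 counts in each control skin library and 0, 0 and 3 in control small intestine, and *Gm20717* had 0 in every control library. Their likeness thus depended in part on the 1 added before the log. *Siglece*, a sialic acid-binding lectin of myeloid cells, was also among the nearest genes of *Fpr1* and *Fpr2*, at 1.25 and 0.78. The pseudogene *Gm5966*, which shares sequence with *Fpr2*, was second to it at 0.70, with 1, 4 and 1 counts in control skin, 45, 25 and 40 in IMQ-treated skin, 2, 2 and 3 in control small intestine and 87 and 74 in IMQ-treated small intestine. Whether reads of *Fpr2* were placed there was not tested.

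*C3ar1* was nearest to *Ms4a7* (0.21), a membrane protein of macrophages, followed by *Pira1* and *Gm15448* (0.27 each). *C5ar1* was nearest to *Stab1* (0.30), a scavenger receptor of macrophages, *Ms4a4a* (0.31) and *Btbd19* (0.34). *C5ar2*, with few counts, had *LOC105243553* (0.66), *Gm34181* (0.71) and *B430319F04Rik* (0.77). *Ptafr* was nearest to *Trim46* (0.21) and *Bloc1s3* (0.25). *Csf1r*, the receptor of macrophage colony-stimulating factor, was among the nearest genes of *Ptafr* (0.25). *Tlr7*, the receptor that IMQ binds, was nearest to *Ltb4r1* (0.29), followed by *Tnfrsf1b* (0.29) and *Pfkl* (0.30). *Cmklr1* was nearest to *Aacs* (0.19), an enzyme of lipid synthesis, followed by *Apoe* (0.20) and *Ybx3* (0.22). Among the receptors themselves, *C5ar1* and *Ltb4r1* were the closest pair (0.39), followed by *Ptafr* and *Ltb4r1* (0.51), and *Fpr1* and *Fpr2* were 1.13 apart.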

How the data were processed

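Gene expression was measured in 11 libraries made with the TruSeq stranded mRNA kit and sequenced as 100-bp paired-end reads. Per the labels, base calls were made with bcl2fastq 2.20.0, reads were trimmed with Trimmomatic, aligned to mm10 with HISAT2 2.1.0 and assembled with StringTie 2.1.3b. The authors deposited one table with a whole-number read count for each gene and library, without normalization. The authors also deposited FPKM, scaled by gene length and library size, and TPM, which was not used here. The tool that wrote the counts, its use of strand and its handling of reads with several matches are not given in the sources used here.

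Libraries were grouped by tissue and treatment from the labels. In each tissue, genes counted at least 1 time in every library were normalized by relative log expression and compared with the quasi-likelihood test of edgeR 4.0.16 (R 4.3.3). The p-values were adjusted by Benjamini-Hochberg across the genes of the fit, and 0.05 was the threshold. The tissue contrast of control mice and the difference between the tissues came from one model of all 11 libraries. The SE was obtained from the size of the log2 fold change and the F statistic, as their ratio after the root of F was taken. The replicates were separate samples, and p-values measure the spread between them. The chi-square statistic per degree of freedom was 34.0 to 231 between replicates, so no library was a copy of another.

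The receptors, the 6 pathway lists and the 12 marker lists were chosen with earlier results of these data known, and 1 gene is not reported here. From each list, at most 3 called genes of a tissue that averaged 50 or more normalized counts there are named, by the size of the change, together with the genes that were not tested. *Anxa1*, *C3*, *Alox5*, *Lta4h*, *Rarres2*, *Ltb4r2*, *Gnai2*, *Gnai3* and *Gnb2* are named for their role and *Ctsg* as the single call of its list, chosen after their values were seen. Other settings tried were DESeq2 1.42.0, limma-voom (limma 3.58.1), TMM or upper-quartile scaling, no filter, filterByExpr, limma on log2(FPKM + 0.01) and log2(FPKM + 1), one fit of all libraries, and each library left out. The test was also run on simulated data, and the outcome is not given here. Python 3.11.15 with pandas 2.3.3 and numpy 2.4.6 was used for tables and sequences. Positions and promoters were taken from RefSeq on GRCm38, and all 9 receptors matched.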

Additional observations from a re-analysis of the deposited data

Results flagged for a closer look

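For 2 genes of the pathway lists, the change under IMQ differed between the tissues in the interaction test of edgeR over all 11 libraries. *Cyp4f18*, which inactivates leukotriene B4, had a lower log2 fold change in small intestine than in skin, with a difference of -2.32 (edgeR adjusted p 0.0307). *Fgr*, a kinase behind the receptors, had a change larger in small intestine by 1.58 on the log2 scale (edgeR adjusted p 0.0239). When libraries were left out one at a time, the difference was -2.74 to -2.08 for *Cyp4f18* and 1.37 to 1.78 for *Fgr*. The call was lost in 7 of the 11 fits for *Cyp4f18* and 7 of 11 for *Fgr*.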

How the results depend on the processing

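No direction of a called result was reversed by an alternative. In small intestine 3 receptors were called under every other model or filter and as each control library was left out. In skin the count was 5 and ran from 3 (without IMQ replicate 4 or 5) to 6 (without control replicate 2) as each library was left out. These calls of receptors are a description, since the receptors were selected on the change under IMQ. The pathway lists gave 16 calls in skin, 7 to 23 as each library was left out, and 12 in small intestine, where DESeq2 gave 20. Between the control tissues 2 receptors were called, 1 to 2 as each library was left out, and 6 on log2(FPKM + 0.01). For the difference between the tissues 2 pathway genes were called, 1 without a filter, 1 on log2(FPKM + 0.01), and 0 to 3 as each library was left out. Over all genes, DESeq2 called 3030 in skin against 1382, 1206 in small intestine against 588, and 1281 against 462 for the difference between the tissues. The lowest counts among the models were 894 in skin and 404 in small intestine on log2(FPKM + 1), and 301 for the difference without a filter. As each library was left out, they were 258 to 2521 in skin, 294 to 801 in small intestine and 144 to 1072 for the difference. *C5ar2* in skin could not be fitted in one model of all libraries, where it has a library at 0. Of 24 genes most like a receptor, 14 remained on log2(FPKM + 0.01). The causes were not tested. No paired analysis was possible because nothing states which skin and intestinal libraries came from one mouse. The fits of all 11 libraries therefore treated them as independent. Genes with few counts, namely *Fpr1* in control tissue, *Fpr3* and *C5ar2*, are limited by depth.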
